A study of Drosophila melanogaster with 6 samples.

Results

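AGO2 domains that were divided differently in a pair of Drosophila cell lines are described here: stretches of chromatin where the AGO2 peaks of the S2 line and of the S3 line overlapped, but where at least 1 of the lines had its signal listed as 2 or more separate peaks. S2 and S3 peaks that overlapped by 1 bp or more were linked, and connected sets of linked peaks formed a group. Of 1662 groups, 172 held 2 or more peaks of a line and at least 1 of the other, which is 10.3% of all linked groups; the other 1490 held 1 peak of each line. The 172 divided domains took in 296 of the 2084 S2 peaks (14.2%, 95% exact binomial interval 12.7 to 15.8%) and 262 of the 3159 S3 peaks (8.29%, 7.36 to 9.31%). These shares are of whole lists, in which 298 S2 and 1407 S3 peaks were unlinked and could not belong to a domain. The unlinked peaks lower the S3 share more than the S2 share. The domains were chosen by the listed peak positions of both lines, so their numbers, spans, covered lengths and gaps are given as a description, without a test.

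Both lines are Schneider's lines, cultures established from Drosophila melanogaster embryos and kept in M3 medium with yeast extract, bactopeptone and fetal bovine serum; no genetic change or treatment is given for either. Each was represented by 1 chromatin immunoprecipitation library (ChIP-seq) made with the monoclonal anti-AGO2 antibody 9D6. The series has 6 samples in all, of which the S2 ChIP with a polyclonal AGO2 antibody and the 3 inputs were not analysed here. With 1 library per line there is no replicate error, no test compares the lines, and the read depth behind a peak is unknown; intervals cover counting error only. The false discovery rate (FDR) that the authors listed for each peak, up to 5%, was the only measure of strength used. The sources used here do not give how it was set for each library, so it is compared only within a list.

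Argonaute 2 (AGO2) is the Argonaute protein that carries small interfering RNAs in Drosophila and cleaves the RNAs they match. The series concerns a different role, at chromatin insulators, which are DNA elements bound by proteins such as CTCF and CP190 that limit contacts between enhancers and promoters and take part in chromosome looping. A peak is a stretch of DNA that was recovered with AGO2 above background. Its borders are drawn by a program from local read density, so that a dip in density can separate a broad signal into pieces. Positions are on build dm3, counted from 1, and genes are not named because no annotation of that build was used.

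The most frequent form was a single S3 peak facing 2 S2 peaks, which made up 87 of the 172 domains. The reverse form, a single S2 peak facing 2 S3 peaks, made up 51. Another 22 domains held 2 peaks of each line. The remaining 12 were more finely divided: 5 had 3 S2 peaks against 1 S3 peak, 3 had 2 S2 against 3 S3 peaks, 2 had 2 S2 against 4 S3 peaks, 1 had 1 against 3 and 1 had 1 against 4. S2 had more pieces in 92 domains (53.5%), S3 in 58 (33.7%), and the numbers were equal in 22 (12.8%). S2 thus had the larger number of pieces in more domains, although the S3 list was the longer. With the S3 list shortened to the length of the S2 list, 90 domains had more S2 pieces and 31 more S3 pieces. Peaks with the lowest FDR were kept first and, at equal FDR, the wider ones. This cut removed S3 peaks only, so the fall from 58 domains with more S3 pieces is favoured by construction. With only the peaks at an FDR of 0 in both lists, 31 of 442 linked groups were divided (7.01%), against 10.3% with the full lists. The order was turned, with more S3 pieces in 17 and more S2 pieces in 10. That cut kept 485 of 2084 S2 peaks (23.3%) and 1531 of 3159 S3 peaks (48.5%), so it removed a larger share of the S2 list.

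The gaps that divided the domains were mostly short. There were 124 gaps between neighbouring S2 pieces, with a median of 67.5 bp (quartiles 36.8 and 120 bp), and 90 between S3 pieces, with a median of 47 bp (22.5 and 73.5 bp). Gaps under 100 bp numbered 90 of 124 in S2 and 71 of 90 in S3. In 121 of the 172 domains (70.3%) every gap was under 100 bp, and in 59 every gap was under 50 bp. The smallest gaps measured 2 bp. Each gap of a line lay wholly inside a single peak of the other line, which follows from the way groups were formed. The name of a differently divided domain therefore stands, in most cases, for a break of under 100 bp within an otherwise continuous listed region. Only 14 domains (8.14%) had a gap of 500 bp or more, and 9 had 1 of 1000 bp or more.

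**Figure D1:**
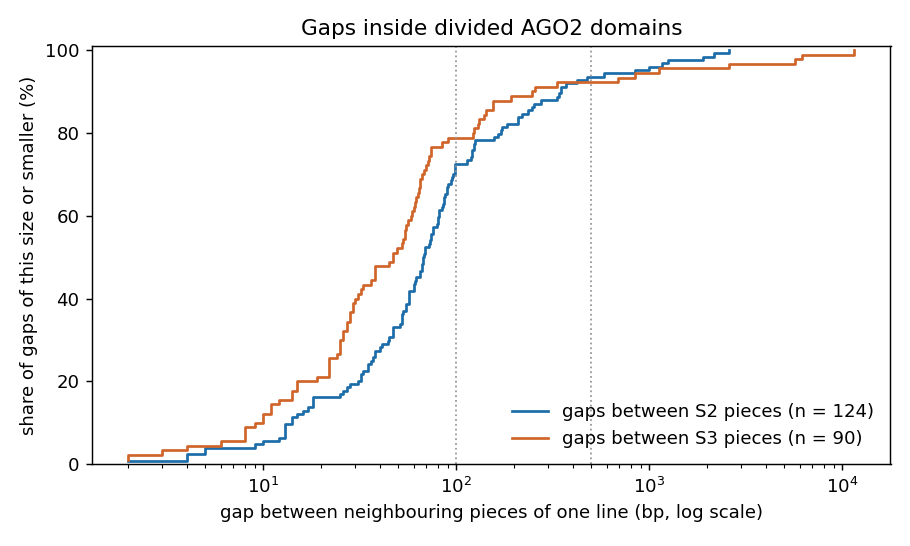
Cumulative share (%, vertical axis) of the gaps between neighbouring pieces of a line inside divided domains, by gap size in bp (horizontal log axis), for 124 S2 gaps and 90 S3 gaps; dotted lines stand at 100 and 500 bp. Most gaps of both lines lie left of 100 bp, and few (8 in S2, 7 in S3) measure 500 bp or more, up to 2594 bp in S2 and 11516 bp in S3.

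Divided domains were broad. Their span, from the first to the last base of any peak, had a median of 2851 bp (quartiles 1955 and 4365 bp, range 1057 to 18967 bp), against 1587 bp (1048 and 2501 bp) in groups with 1 peak of each line. A group has to hold at least 3 peaks to be divided, which by itself favours a wide span. Of the 333 linked groups with the smallest spans, up to 997 bp, none was divided; of the 333 with the largest, from 3039 bp, 79 were divided (23.7%). In all, the domains contained 504 kb of S2 peaks, which is 15.5% of the length of the S2 list, and 549 kb of S3 peaks, which is 10.1% of the S3 list. Both shares are of whole lists with their unlinked peaks, which were more numerous in S3 (1407) than in S2 (298).

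The lines covered similar lengths in the typical domain, and very different lengths in some. The S3 peaks covered a median of 1.08 times the length of the S2 peaks (quartiles 0.969 and 1.41), near the 1.06 of groups with 1 peak each (0.961 and 1.41). S3 covered more in 115 of 172 divided domains (66.9%) and in 984 of 1490 groups with 1 peak each (66.0%). The covered lengths differed by more than 2-fold in 29 divided domains (16.9%) and in 236 groups with 1 peak each (15.8%). S3 was the longer in 19 of those 29 domains and S2 in 10. Where S2 had more pieces, S3 covered more in 78 of 92 domains, with a median ratio of S3 to S2 of 1.18. Where S3 had more pieces, S2 covered more in 34 of 58, with a median ratio of S3 to S2 of 0.97. A line that leaves gaps uncovered loses that length by the way pieces are counted, so part of this pattern is built in.

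**Figure D2:**
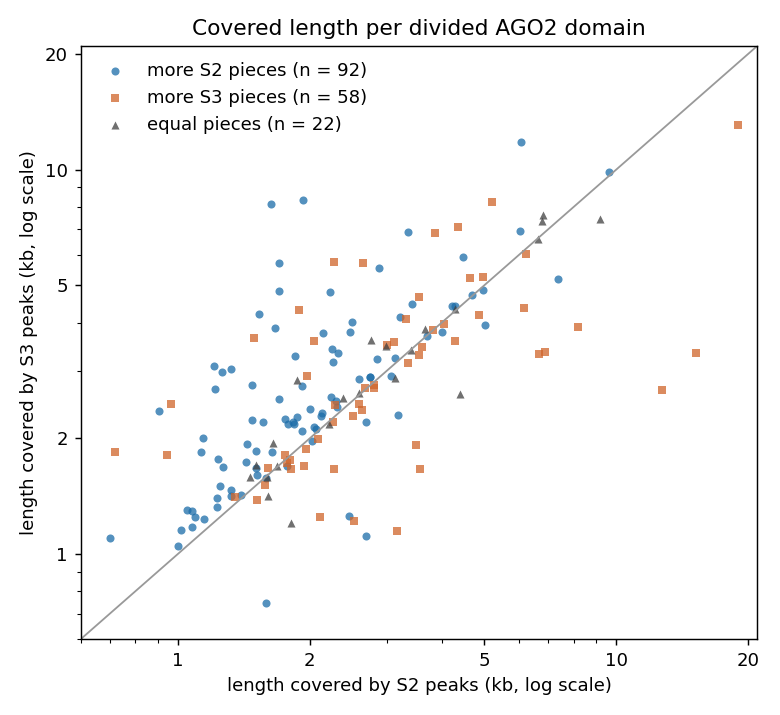
Length covered by S3 peaks (kb, vertical log axis) against length covered by S2 peaks (kb, horizontal log axis) for each of 172 divided domains, marked by the line with more pieces; the line marks equal lengths. Domains with more S2 pieces lie mostly above the line (78 of 92), while those with more S3 pieces lie on both sides of it (24 above and 34 below).

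In domains where 2 pieces of a line faced a single peak of the other, the pieces differed in size. Among the 87 domains with 2 S2 pieces, the wider piece had a median width of 1187 bp, the narrower 676 bp and the single S3 peak 2332 bp. The narrower piece made up a median of 37.0% of the combined length, and under 25% in 12 of 87. The centre of the gap lay a median of 11.2% of the S3 peak's width from its middle. Among the 51 domains with 2 S3 pieces, the wider piece had a median width of 1955 bp, the narrower 835 bp and the single S2 peak 2594 bp. Here the narrower piece made up a median of 32.6% of the combined length, and under 25% in 11 of 51. The centre of the gap lay a median of 19.5% of the S2 peak's width from its middle. Counting also the domains with 3 or 4 pieces against 1, S2 pieces lay wholly inside the single S3 peak in 138 of 189 cases, and S3 pieces wholly inside the single S2 peak in 53 of 109.

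The 22 domains with 2 peaks of each line had their breaks at different places, which follows from the way groups were formed. A gap that overlapped a gap of the other line would have left the peaks on its sides unlinked. Breaks shared by both lines are therefore absent from these 22 domains, and the distances describe only breaks that did not overlap. These breaks were often close to each other. The S2 gap (median 49 bp) and the S3 gap (median 45 bp) were a median of 139 bp apart, with a range of 5 to 2901 bp. In 11 of the 22 domains they were under 100 bp apart, and in 7 under 50 bp. On X, positions 4216353 to 4218308, only 5 bp separated a 2-bp S3 gap from a 251-bp S2 gap. The most distant breaks were also on X, in the domain from 1510008 to 1518132, where a 114-bp S2 gap and a 28-bp S3 gap lay 2901 bp apart.

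The 10 widest domains took several forms. In the widest, on X, from 2183962 to 2202928, S2 peaks of 5369 and 13593 bp, at an FDR of 0 and 0.19%, met with only 5 bp between them and covered 99.97% of the 18967-bp span. Over the same stretch 4 S3 peaks of 1641, 3942, 1462 and 6035 bp, all at an FDR of 0, covered 69.0%, and their largest gap was 2580 bp. S2 was thus nearly unbroken there, while S3 left a stretch in the middle and both ends uncovered. The S3 peaks began at 2186177 and ended at 2202181.

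A pair of domains was listed as a single very broad S2 peak with S3 peaks only near its ends or centre. On 3R, an S2 peak of 15202 bp (3938399 to 3953600, FDR 0) faced S3 peaks of 1388, 648 and 1307 bp, at an FDR of 0.22%, 0 and 0. The S3 peaks began at 3938346, 3945393 and 3952226, so they marked both ends and the middle, with gaps of 5659 and 6185 bp between them. On 3L, an S2 peak of 12729 bp (604672 to 617400, FDR 0.1%) faced S3 peaks of 1572 and 1103 bp at an FDR of 0, 11516 bp apart. The 1572-bp S3 peak (603236 to 604807) lay mostly outside the S2 peak and overlapped only its left end. The 1103-bp S3 peak lay at the right end. In this domain 1213 bp were covered by both lines. S3 covered 21.9% of the 3R span and 18.9% of the 3L span, against 99.7% and 89.7% in S2. On 3R, from 5750508 to 5758803, an S2 peak of 8194 bp at 0.14% likewise faced S3 peaks of 2521 bp (FDR 0) and 1387 bp (0.8%), which were 1128 bp apart.

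Other wide domains had the opposite form. On 3R, an S3 peak of 8160 bp from 6712704 to 6720863 (FDR 0) faced S2 peaks of 443 bp (0.11%) and 1187 bp (0), which covered 19.98% of the span; the ratio of S3 to S2 length, 5.01, was the highest of the 172 domains. On 3L, an S3 peak of 8361 bp from 20505594 to 20513954 (FDR 0.22%) faced S2 peaks of 692 bp (0.11%) and 1240 bp (0.33%), which covered 23.1%. On 2R, an S3 peak of 11789 bp from 16882232 to 16894020 (FDR 0) faced S2 peaks of 4919 and 1150 bp, both at 0, which were 90 bp apart and covered 51.5%. In these 3 domains S2 peaks lay in a part of the S3 peak and left the rest of it without a listed S2 peak.

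In the remaining 3 of the 10 widest domains both lines covered most of the span or overlapped with shifted ends. On 2L, from 244044 to 256124, S2 peaks of 846 and 8796 bp (FDR 0.1% and 0.12%) and an S3 peak of 9887 bp (FDR 0) covered 79.8% and 81.8% of the span, with S3 reaching further to the left and S2 to the right. On 2L from 5976468 to 5985705, S2 peaks of 4911 and 4289 bp (FDR 0 and 0.32%) faced S3 peaks of 4826 and 2628 bp (both 0), and the breaks, of 38 and 14 bp, were 64 bp apart. On 3L from 22826853 to 22835215, an S2 peak of 5198 bp (FDR 0) faced S3 peaks of 2502 bp (FDR 0) and 5761 bp (2.66%).

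**Figure D3:**
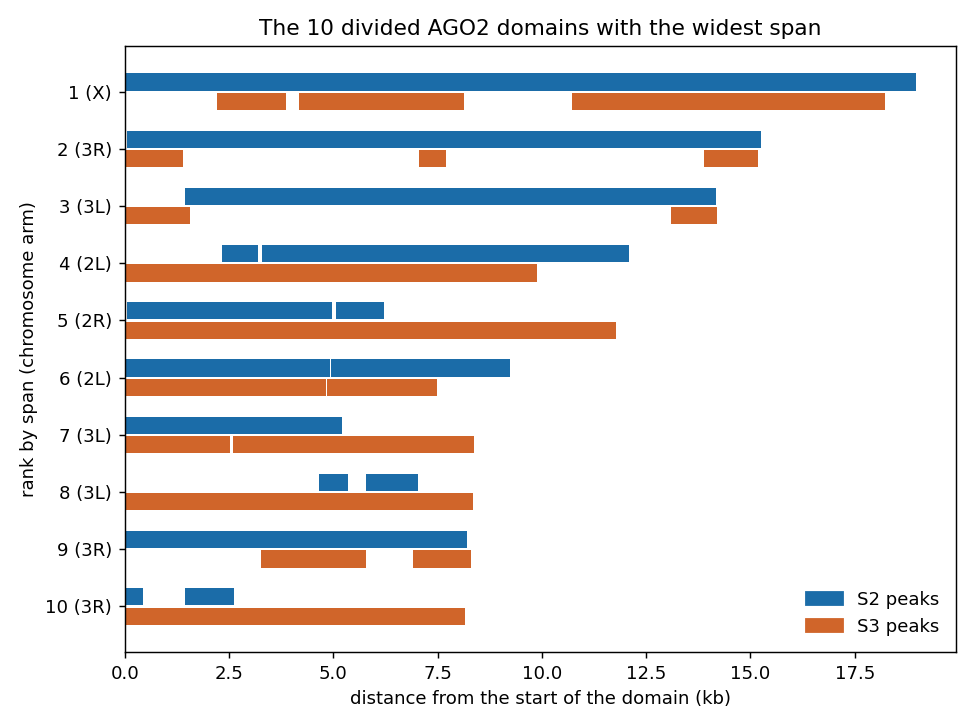
Listed S2 peaks (blue, upper row of each pair) and S3 peaks (orange, lower row) in the 10 divided domains with the widest span, against distance from the start of the domain in kb (horizontal axis); rows are ranked by span and labelled with the chromosome arm. Ranks 2, 3 and 9 show a broad S2 peak facing shorter S3 peaks, and ranks 5, 8 and 10 a broad S3 peak facing shorter S2 peaks. Breaks of under 100 bp are thin or, at rank 1, too short to be visible.

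The domains with the largest excess of S2 pieces were 5 in which 3 S2 peaks faced a single S3 peak, and that S3 peak was at an FDR of 0 in all 5. On 3L, from 20498903 to 20504450, S2 peaks of 338, 1099 and 1447 bp had an FDR of 0.32%, 4.06% and 0.09% and faced an S3 peak of 5548 bp. On 2L, from 2197489 to 2201971, S2 peaks of 974, 820 and 1631 bp at 0.12%, 1.26% and 0.08% faced an S3 peak of 4483 bp, with S2 gaps of 35 and 37 bp. On 3L from 13995025 to 13999442, S2 peaks of 627, 776 and 2812 bp at 4.68%, 0.11% and 0 covered 95.4% of a 4418-bp S3 peak. In each of these, the S2 pieces of 1 domain spanned a wide range of FDR although a single S3 peak covered all of them. The other 2 lay on 3R, from 9881247 to 9885251 and from 4881663 to 4885426, with S2 pieces at 0.08 to 0.13% and at 0 to 4.34%.

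The domain with the largest excess of S3 pieces was on X, from 1124271 to 1130940. A single S2 peak of 6670 bp at 0.14% faced 4 S3 peaks of 1002, 1108, 656 and 544 bp, at an FDR of 0, 0.39%, 0 and 0.12%, which covered 49.6% of it. Another X domain with 4 S3 peaks, from 7588085 to 7591795, was broken in both lines: S2 peaks of 879 and 2232 bp (both at 0) faced S3 peaks of 829, 449, 974 and 1311 bp (4.21%, 0, 0.12% and 0). All of its gaps were between 14 and 90 bp. Of the 3 domains with 2 S2 and 3 S3 peaks, that on X from 3585629 to 3591909 was covered to 99.0% by S2 and 96.0% by S3. On 2R, from 9894130 to 9897119, the largest S3 gap was 254 bp. On 2L, from 12542218 to 12546964, S2 peaks of 1599 and 1958 bp left a gap of 1167 bp that a single S3 peak of 1198 bp at an FDR of 3.22% filled. That S3 peak lay between S3 peaks of 1491 and 1966 bp at an FDR of 0 that matched the S2 peaks closely in position.

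Of the 14 domains with a gap of 500 bp or more, 7 had more S2 pieces and 7 more S3 pieces. The largest S2 gaps were 2594 bp on 3R, 2167 bp on 3L and 1893 bp on 2L. In the 3R domain, from 20098095 to 20102909, S2 peaks of 1322 bp (0.12%) and 899 bp (2.02%) stood at the ends of an S3 peak of 4799 bp (FDR 0), whose outer borders lay within 14 bp of those of the S2 pair. In the 3L domain, from 7857081 to 7860946, S2 peaks of 539 bp (0.15%) and 1123 bp (0) likewise stood at the ends of an S3 peak of 3866 bp (FDR 0). In the 2L domain, from 6083833 to 6089546, S2 peaks of 1016 bp (0.08%) and 681 bp (0.2%) covered 29.7% of an S3 peak of 5714 bp (FDR 0).

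Single peaks that faced several pieces were wide and often listed at an FDR of 0. Of the 92 S3 peaks that faced 2 or 3 S2 pieces, 85 were listed at an FDR of 0 (92.4%, 85.0 to 96.9%), beside 48.5% of all S3 peaks and 68.8% (66.4 to 71.1%) of S3 peaks in groups with 1 peak each. Their median width was 2404 bp, against 1450 bp in groups with 1 peak each. Of the 53 S2 peaks that faced several S3 pieces, 23 were at an FDR of 0 (43.4%, 29.8 to 57.7%), beside 23.3% of all S2 peaks and 25.9% (23.7 to 28.2%) of those in groups with 1 peak each, and their median width was 2628 bp against 1237 bp. The pieces were closer to the ordinary linked peak. Among 243 S2 pieces 27.6% (22.1 to 33.6%) were at an FDR of 0, with a median width of 935 bp, and among 170 S3 pieces 63.5% (55.8 to 70.8%), with a median width of 1205 bp. A wide peak has more room for pieces of the other list, and width was not held fixed here.

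Within a divided domain the narrower of 2 pieces was not generally the one with the higher FDR. In the 87 domains with 2 S2 pieces against a single S3 peak, the narrower piece had the higher FDR in 39, the lower in 36 and the same in 12. In the 51 domains with 2 S3 pieces, it had the higher FDR in 18, the lower in 16 and the same in 17, of which 16 had both pieces at 0.

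Breaks under 500 bp were frequent in both lists, and divided domains hold only a part of them. The S2 list had 339 gaps under 500 bp between neighbouring peaks. A single S3 peak spanned the gap in 116 (34.2%). In 185 (54.6%) S3 peaks met both neighbours without spanning the gap, so that S3 was interrupted there as well. Of 155 S2 gaps under 100 bp, 90 were spanned by an S3 peak and 52 were not although S3 met both sides. The S3 list had 517 gaps under 500 bp, of which an S2 peak spanned 83 (16.1%). In another 202 (39.1%) S2 met both sides without spanning the gap, in 144 it met a single side, and in 88 it met neither.

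Divided domains lay on every arm with peaks. There were 51 on X, 40 on 3L, 31 on 3R, 25 on 2L, 24 on 2R and a single domain on chromosome 4, the smallest chromosome. As a share of the linked groups of the arm, these were 12.9% on X (9.77 to 16.6%), 11.7% on 3L (8.51 to 15.6%), 8.92% on 2R (5.80 to 13.0%), 8.90% on 2L (5.84 to 12.9%) and 8.40% on 3R (5.78 to 11.7%). The intervals of these 5 arms overlap. On chromosome 4 it was 1 of 7 linked groups, with an interval of 0.361 to 57.9%. X had the narrowest divided domains of the large arms, with a median span of 2242 bp, and 3R the widest, with 4414 bp. The medians of groups with 1 peak each were 1205 and 1770 bp on these arms. S2 had more pieces than S3 in more domains on each of the large arms, with 26 against 19 on X, 22 against 13 on 3L, 16 against 9 on 3R, 16 against 6 on 2L and 12 against 10 on 2R. Of the 14 domains with a gap of 500 bp or more, 5 were on 3R, 3 each on 3L and X, 2 on 2L and 1 on 2R.

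**Figure D4:**
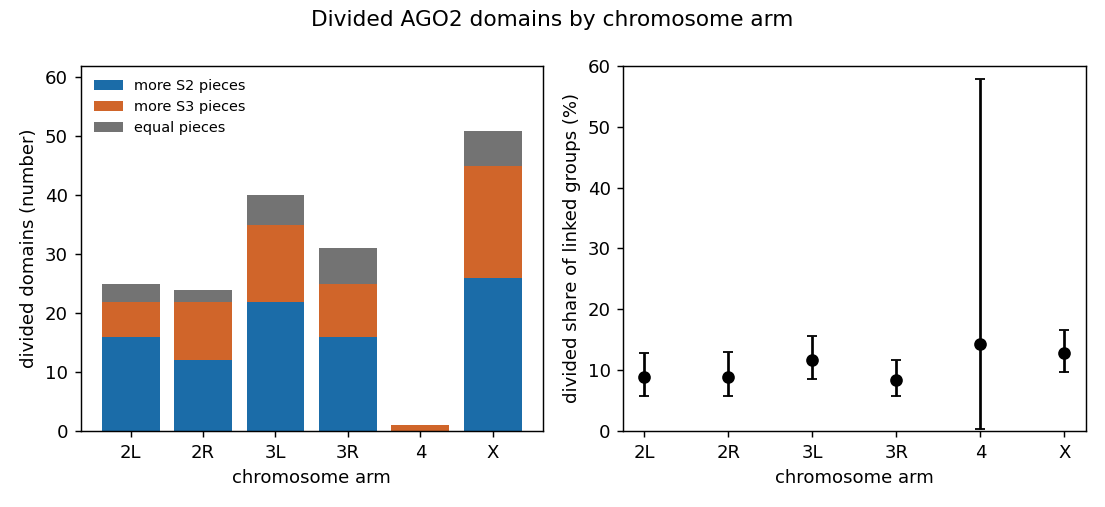
Left, number of divided domains on each chromosome arm, stacked by the line with more pieces. Right, divided domains as a share (%) of all linked groups of the arm, with 95% exact binomial intervals that cover counting error only; X (12.9%) and 3L (11.7%) stand somewhat above 2R, 2L and 3R (8.40 to 8.92%), with overlapping intervals, and chromosome 4 rests on 7 linked groups.

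Most divided domains had no other divided domain close by, but distances among other linked groups were not measured for comparison. For the 171 domains that shared their arm with another, the nearest divided domain was a median of 218 kb away, and 15 had a divided neighbour within 5 kb. Joining neighbouring peaks of a list that were closer than 500 bp, before linking, lowered the number of divided domains. It fell from 172 of 1662 linked groups (10.3%) to 57 of 1443 (3.95%). Only 24 of these 57 lay at a domain that was divided in the lists as deposited. The other 33 lay elsewhere; a join in a single list can span a longer gap of the other. Which domains count as divided therefore depended on the break that was tolerated. By construction, none of the joins tried closes the gaps of 1000 bp or more in 9 domains.

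**Figure D5:**
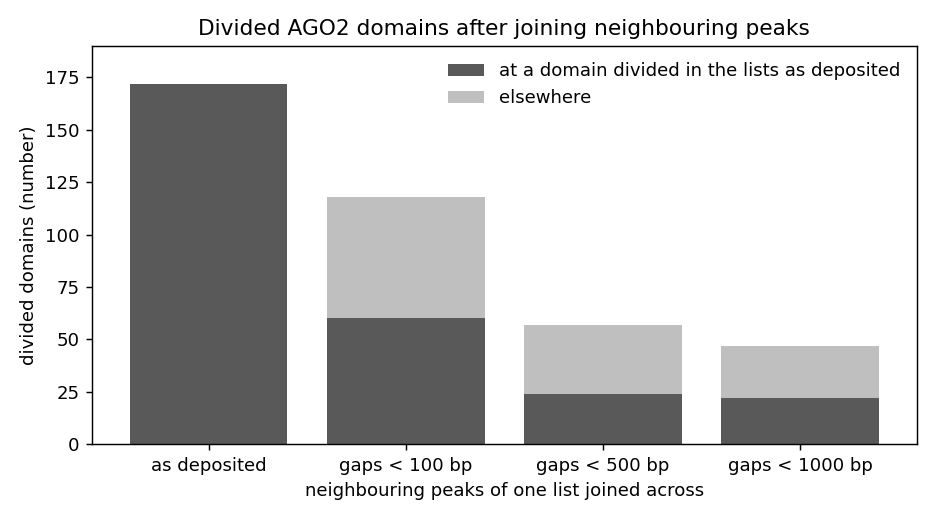
Number of divided domains (vertical axis) in the lists as deposited and after neighbouring peaks of a list were joined across gaps under 100, 500 or 1000 bp; dark bars count domains that meet a domain divided in the deposited lists (60, 24 and 22 after joining), light bars those elsewhere. The total falls from 172 to 118, 57 and 47. As a share of the linked groups of each setting, it falls from 10.3% to 7.62%, 3.95% and 3.3%.

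The rule asks for an overlap of 1 bp, and the weakest links in the domains were short. Overlaps of 5 bp linked peaks on 2L (S2 12544984 to 12546941, S3 12543791 to 12544988) and on X (S2 4216353 to 4217467, S3 4217463 to 4218308), and 6 bp linked a pair on 3R (S2 16134426 to 16136804, S3 16136799 to 16137885). Of 386 linked pairs in divided domains, 20 overlapped by less than 100 bp. Just outside the rule, an S2 peak on 2L from 470022 to 471303 missed an S3 peak by 1 bp, an S2 peak on X from 7598189 to 7599530 missed another by 3 bp, and an S2 peak on 3R from 12725178 to 12725850 missed an S3 peak by 7 bp.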

How the data were processed

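Peak lists of 1 S2 and 1 S3 library, both ChIP-seq with antibody 9D6, were used; groups come from the sample titles. Build dm3, MACS 1.3.7.1 and Bowtie 0.12.5 are named in the submitters' processing notes, without a role for each. The authors deposited each list separately, not pooled. Besides its position, each peak has a deposited score, read as the FDR in percent from the track lines in the file headers and from its range of 0 to 5. The sources used here give neither read depth nor filters nor the input used. Depth can change where peak borders and breaks are drawn.

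Linking, spans, covered lengths and gaps were computed with Python 3.11.15, numpy 2.4.6, pandas 2.3.3, scipy 1.17.1 and matplotlib 3.10.9; the linking code was tested on simulated lists. Intervals are exact binomial (Clopper-Pearson, 95%). Domains named are the 10 widest, the 5 with the largest excess of pieces of each line, the 5 with 2 or more peaks of both lines and the most peaks, the 3 with the largest gaps of each line, and 3 at each side of the overlap threshold. The 2-bp and 2901-bp examples among domains with 2 peaks of each line were chosen after their values were seen. The domains and rules were chosen with earlier results of these data known. Alternatives were other overlaps, stricter FDR, equal list lengths and joined peaks.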

Additional observations from a re-analysis of the deposited data

How the results depend on the processing

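Of 88 values recomputed under 8 alternatives, 55 stayed within 1.5 times the reported value (for the median span, within its 95% interval of 2526 to 3232 bp) and 33 moved; the cause was not tested beyond what each setting does by construction. Fewer peaks entered at an FDR of 0, which left 31 domains among 442 linked groups. Of these domains, 10 had more S2 pieces, 17 more S3 pieces and 4 equal pieces. They held 45 S2 and 52 S3 peaks, which covered 106657 and 106536 bp. There the excess of domains with more S2 pieces turned into an excess with more S3 pieces. With equal list lengths, where only the S3 list was cut, 31 domains had more S3 pieces and 90 more S2 pieces. An overlap of 100 bp or of 50% of the shorter peak left 11 and 5 domains with equal pieces. Joining across gaps under 100 bp moved 4 of 11 values, and joining under 500 or 1000 bp moved 9 of 11 each. The number of domains was 57 of 1443 linked groups at 500 bp and 47 of 1405 at 1000 bp. Of these domains, 38 and 33 had more S2 pieces. They held 97 and 81 S2 peaks, with 255388 and 255811 bp covered in S2 and 289847 and 292744 bp in S3. Across the 3 joins, 28, 18 and 14 domains had more S3 pieces, 1, 1 and 0 had equal pieces, S3 peaks numbered 152, 78 and 62, and the median span was 3939, 4815 and 6139 bp. S2 had more pieces than S3 in more domains in every setting except the FDR of 0. That cut kept 23.3% of the S2 peaks and 48.5% of the S3 peaks. The share of gaps covered by the other line was 100% in all settings, by construction. This share was counted for each line, so it is among the 55 values that stayed although it could not move. Under joins of 500 or 1000 bp, every value that could move did. No paired analysis was possible because 1 library per line, made with antibody 9D6, was used. Depth is unknown, so the effect of depth on these breaks was not tested.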
